A study of Mus musculus with 6 samples.

Results

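Glycolysis and the response to low oxygen were followed through 35 genes in the mesonephros of male mouse embryos at E12.5. They were chosen by name as 18 glycolytic enzymes, 4 transporters of glucose and lactate, and 13 other genes that low oxygen induces. They gave 36 of the 20033 rows of the expression table, because the symbol Aldoa stands on 2 rows. Whole mesonephroi of 3 embryos labelled as global Wnt9b knockouts were compared with those of 3 embryos labelled as controls. All embryos are of 1 age, and each library is from its own embryo. For the controls the labels disagree, since the genotype field reads heterozygous while the design text gives Wnt9b+/+; the knockouts are given as Wnt9b-/-, deleted in the whole animal. The mesonephros is the temporary kidney of the embryo. It holds the Wolffian duct, tubules, mesenchyme, vessels and blood, and the gonad adjoins it. The duct epithelium secretes the Wnt ligand that Wnt9b encodes.

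Glycolysis splits glucose into pyruvate in the cytoplasm, and lactate dehydrogenase turns pyruvate into lactate, which leaves the cell through monocarboxylate transporters. Low oxygen stabilises the alpha subunits of the hypoxia-inducible factors (HIF), because the prolyl hydroxylases that mark them for breakdown need oxygen. The factors then raise many glycolytic genes, together with genes for blood vessel growth, collagen hydroxylation and the diversion of pyruvate from mitochondria. Embryonic tissues of this age use glycolysis heavily, and the enzymes are expressed in nearly every cell. In whole tissue, fewer cells of a type and less RNA per cell cannot be told apart.

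Values are in TPM, a measure of transcript abundance corrected for gene length and library size, as the authors deposited them. A gene's values are whole multiples of what 1 read is worth, and the reads recovered from these steps summed to between 28687415 and 32064834 per knockout library and between 29061367 and 33574278 per control library. These totals are lower bounds. Wnt9b (ENSMUSG00000018486) was at 23.4, 19.2 and 19.0 TPM in the knockouts and at 24.9, 26.4 and 34.0 TPM in the controls. Differences are knockout minus control on the log2(TPM + 1) scale, with the standard error and adjusted p of limma, a linear model fitted across all genes tested. For Wnt9b all knockout values lay below the controls, and the difference was -0.44 (SE 0.14; limma adjusted p = 0.266; authors' deposited table, adjusted p = 0.0263). A gene-level value would keep transcripts left after a partial deletion, so it checks the labels only weakly. Whether such transcripts are present here was not tested. Mesonephric markers were present in all libraries, with Wt1 at no less than 232 TPM in knockouts and 211 TPM in controls. Of 11 such markers tested, Tcf21 was higher and Lhx1 lower in the knockouts by limma (adjusted p = 0.0197 and 0.0123).

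In the knockouts 7 rows stood out by a lower level: the hexokinase gene Hk2, the phosphofructokinase gene Pfkl, the lactate dehydrogenase gene Ldha, the glucose transporter gene Slc2a3, the lactate exporter gene Slc16a3, the pyruvate dehydrogenase kinase gene Pdk1 and the collagen prolyl hydroxylase gene P4ha1. In each, all 3 knockout values lay below all 3 control values, and the knockout mean was lower by 15.9% to 27.1% of the control mean. These 7 of 36 rows (19.4%) compare with 8.49% of all 17577 genes tested. Since the members were chosen with earlier results of these data known, such shares describe the list and do not test it. Of the 36 log2 differences, 25 were negative (69.4%) with a median of -0.069 over the 36, beside 51.8% negative and a median of -0.0075 over all genes tested. Only Adm of the 36 lay wholly above the controls, where 8.14% of all genes did. None of the 36 rows passed limma's test on log2(TPM + 1) at an adjusted p under 0.05, where 0.444% of all genes did, 0.313% as lower. Limma-voom on the recovered reads called 3 of the 36, Hk2, Pdk1 and P4ha1, all lower, where it called 1.68% of all genes and 1.19% as lower. At an unadjusted limma p under 0.05, 9 rows were lower and 2 were higher, where 11.3% of all genes passed and 5.92% were lower. The authors' deposited table puts the same 7 rows and no other of the 36 under an adjusted p of 0.05, all lower, where 2.17% of its 18858 genes with an adjusted p are lower and 3.55% are called in all.

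**Figure D1:**
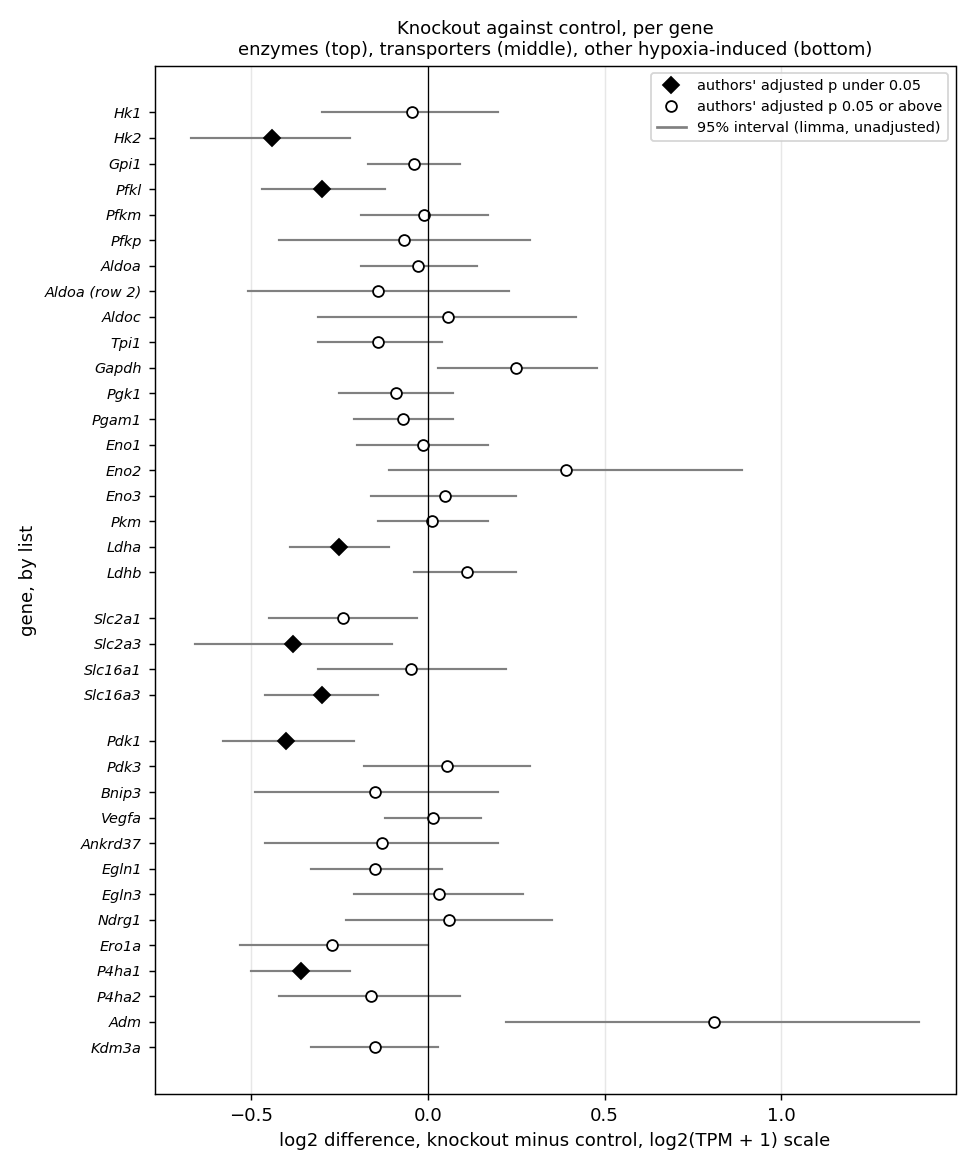
Log2 difference of each gene, knockout minus control, on the log2(TPM + 1) scale (x axis), with its unadjusted 95% interval from limma, by list from top to bottom. Filled diamonds mark the 7 genes with an adjusted p under 0.05 in the authors' deposited table, all of which lie between -0.44 and -0.25.

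The windows around the starts of 6 of these 7 genes are shown because HIF binds the letters ACGTG or GCGTG, and the promoter table holds no window for Slc2a3. Each window runs 5′ to 3′ in the direction of the gene, from 250 bases before the start to 50 after it, and was taken from RefSeq on build GRCm38.p6. The files use GRCm39, and no value was joined to a position. Where the table gives 2 windows for a gene (Ldha and Pdk1), the more upstream one is shown. Capitals mark the letters ACGTG or GCGTG, or CACGT or CACGC where they lie on the other strand.
Hk2, chr6:82774405-82774704, minus strand: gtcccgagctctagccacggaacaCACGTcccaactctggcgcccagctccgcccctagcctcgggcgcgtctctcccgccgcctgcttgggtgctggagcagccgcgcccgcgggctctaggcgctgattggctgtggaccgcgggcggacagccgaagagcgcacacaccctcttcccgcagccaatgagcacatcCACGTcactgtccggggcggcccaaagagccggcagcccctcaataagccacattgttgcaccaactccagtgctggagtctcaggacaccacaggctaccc
Pfkl, chr10:78009758-78010057, minus strand: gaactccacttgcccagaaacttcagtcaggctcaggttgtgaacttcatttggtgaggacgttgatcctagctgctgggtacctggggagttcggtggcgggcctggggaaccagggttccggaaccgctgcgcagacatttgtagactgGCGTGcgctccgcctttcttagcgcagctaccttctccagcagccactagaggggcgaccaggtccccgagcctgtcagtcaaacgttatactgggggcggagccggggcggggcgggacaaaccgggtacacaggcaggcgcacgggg
Ldha, chr7:46845554-46845853, plus strand: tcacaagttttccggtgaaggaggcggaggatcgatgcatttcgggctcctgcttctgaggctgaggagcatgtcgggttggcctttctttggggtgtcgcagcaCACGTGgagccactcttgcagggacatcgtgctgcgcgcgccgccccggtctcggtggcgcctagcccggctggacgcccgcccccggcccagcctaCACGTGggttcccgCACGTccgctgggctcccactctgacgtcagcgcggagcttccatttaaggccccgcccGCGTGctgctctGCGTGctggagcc
Slc16a3, chr11:120948817-120949116, plus strand: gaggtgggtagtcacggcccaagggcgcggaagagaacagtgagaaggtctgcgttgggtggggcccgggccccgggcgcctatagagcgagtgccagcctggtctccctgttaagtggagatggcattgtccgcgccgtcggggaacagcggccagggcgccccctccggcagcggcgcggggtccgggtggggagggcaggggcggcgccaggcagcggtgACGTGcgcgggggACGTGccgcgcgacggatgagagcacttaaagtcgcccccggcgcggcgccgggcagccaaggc
Pdk1, chr2:71872974-71873273, plus strand: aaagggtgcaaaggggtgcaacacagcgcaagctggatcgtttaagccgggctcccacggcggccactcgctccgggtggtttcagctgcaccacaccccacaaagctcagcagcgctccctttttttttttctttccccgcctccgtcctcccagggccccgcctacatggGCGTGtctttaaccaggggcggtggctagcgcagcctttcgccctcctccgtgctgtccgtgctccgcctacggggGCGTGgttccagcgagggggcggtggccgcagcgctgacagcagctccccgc
P4ha1, chr10:59323046-59323345, plus strand: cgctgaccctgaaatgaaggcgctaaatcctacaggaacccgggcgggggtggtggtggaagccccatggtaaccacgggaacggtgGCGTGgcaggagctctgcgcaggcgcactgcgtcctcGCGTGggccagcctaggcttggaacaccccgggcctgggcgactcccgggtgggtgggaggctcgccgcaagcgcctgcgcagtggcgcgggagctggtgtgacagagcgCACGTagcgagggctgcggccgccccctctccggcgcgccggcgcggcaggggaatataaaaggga

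All 6 windows held the letters, with 7 matches in Ldha, 3 in P4ha1, 2 each in Hk2, Slc16a3 and Pdk1, and 1 in Pfkl. The matches of Ldha overlap in places, since CACGTG reads as a match on both strands. Of the 33 members with a window, 30 (90.9%) held at least 1 match in at least 1 window of 300 bases, against 65.8% of 11328 genes that were tested here and 46.7% of all 27025 genes of the table. The letters ACGTG alone were found in 66.7% of members, against 28.5% of those tested genes. Members also had more G and C in the richest window of each gene. The median over genes was 65.3%, against 62.0% in the tested genes and 53.3% in all genes. A gene with more windows has more chances of a match and of a high G and C content, and neither figure was adjusted for this. Members were also listed as genes of glycolysis or genes that low oxygen induces, so they are not a neutral sample for HIF letters. Counted over any window, all 6 lower members with a window held a match, as did 24 of the other 27 (88.9%). Vegfa and Pkm, whose levels are given below, are among these 24. Each of them held matches only in the more downstream of its 2 windows, not in the upstream one, the kind shown above. Whether matches relate to the lower levels was not tested, and shares this high in so few genes could not show it. A match is a description of the letters and not a bound site.

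Glycolytic enzymes were the most abundant group, with a summed level of 6114, 5907 and 5827 TPM in the knockouts and 5946, 5993 and 5851 TPM in the controls. The sums overlapped. Gapdh alone averaged 1334 TPM in knockouts and 1116 TPM in controls, whereas 13 of the 19 differences were negative and 6 positive. The median log2 difference of the 19 rows was -0.040. With 1 library left out, this median ranged from -0.078 (without knockout 1) to -0.018 (without control 3). None of the 19 rows passed limma's test (4 at an unadjusted p under 0.05, of which 3 were lower), and the authors' deposited table calls 0 higher and 3 lower. The levels spanned a wide range, from Pfkp at a mean of 4.0 TPM to Gapdh at 1225 TPM over the 6 libraries.

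**Figure D2:**
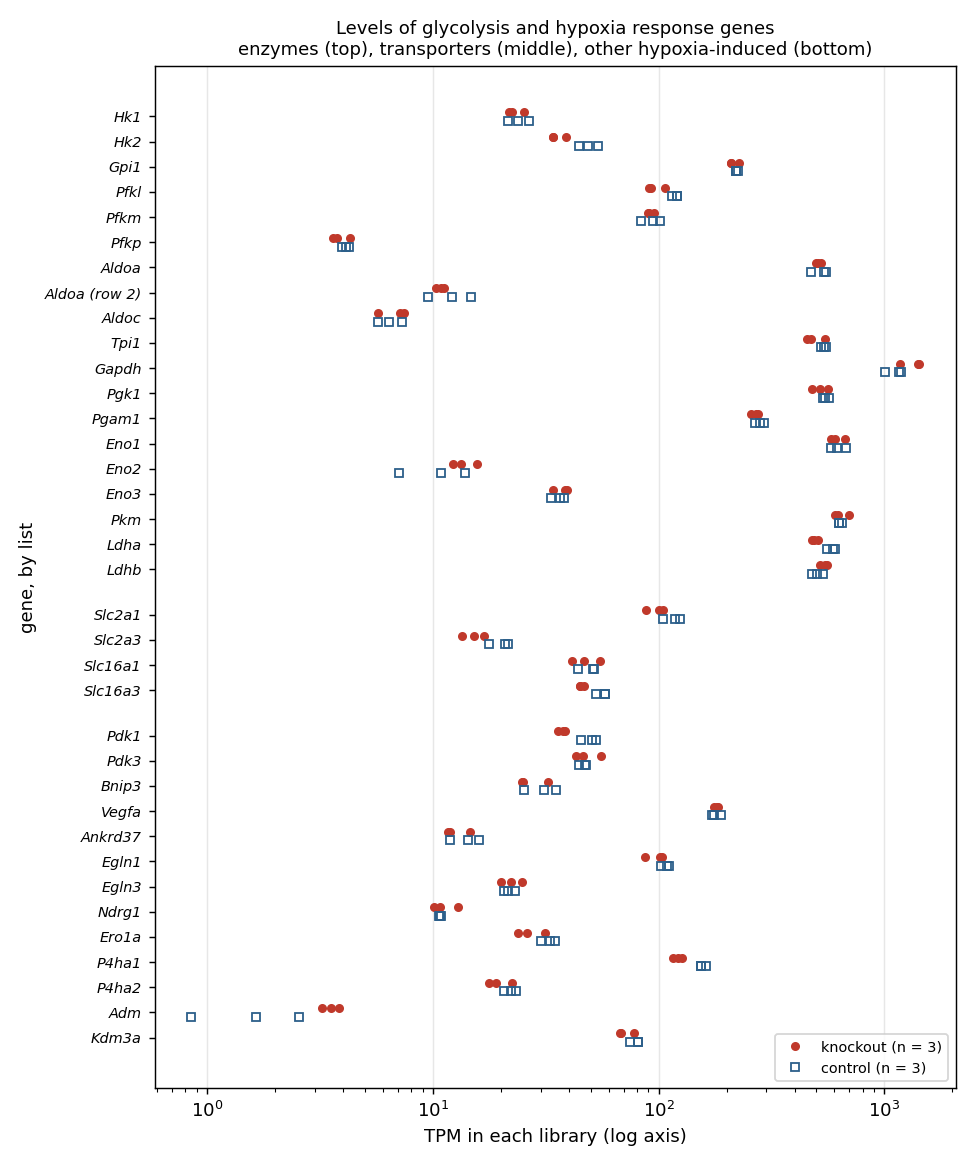
TPM of every gene in each of the 3 knockout libraries (filled circles) and 3 control libraries (open squares), on a log axis, by list from top to bottom. Gapdh has the highest mean of the 36 rows, at 1225 TPM, and Adm the lowest, at 2.6 TPM.

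Hexokinase traps glucose in the cell by phosphorylation. Hk2 (ENSMUSG00000000628), the isozyme that HIF and growth signals induce, was at 39.0, 34.0 and 34.2 TPM in the knockouts and at 44.5, 48.6 and 54.0 TPM in the controls. The groups did not overlap, and the log2 difference was -0.44 (SE 0.097; limma adjusted p = 0.124; authors' deposited table, adjusted p = 0.000437). Hk1, the isozyme found in most tissues, averaged 23.2 ± 1.80 TPM in knockouts and 24.0 ± 2.61 TPM in controls (SD, n = 3 each), and its values overlapped. Hk2 therefore made up 60.8%, 60.2% and 61.0% of hexokinase TPM in the knockouts and 67.5%, 67.1% and 66.9% in the controls. This share varied little within each group, with an SD of 0.43 percentage points in knockouts and 0.28 in controls.

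Glucose-6-phosphate isomerase, encoded by Gpi1, converts the hexokinase product to fructose-6-phosphate, and its log2 difference was -0.040. Phosphofructokinase catalyses the committed step of the pathway. Pfkl (ENSMUSG00000020277), its liver-type subunit, was at 107, 90.9 and 92.2 TPM in the knockouts and at 114, 121 and 121 TPM in the controls. All knockout values were lower, with knockout 1 the closest to the controls (log2 difference -0.30, SE 0.077; limma adjusted p = 0.187; authors' deposited table, adjusted p = 0.0203). Pfkm, the muscle-type subunit, averaged 92.0 ± 2.95 TPM in knockouts and 92.9 ± 8.46 TPM in controls, and Pfkp, the platelet-type subunit, 3.89 ± 0.373 TPM in knockouts and 4.11 ± 0.139 TPM in controls. The knockouts therefore held 52.8%, 49.3% and 48.2% of phosphofructokinase TPM as Pfkl, and the controls 53.6%, 58.0% and 53.5%. The nearest values of the groups, 52.8% and 53.5%, were close to each other.

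The enzymes of the middle of the pathway did not separate the groups. Aldolase, encoded by Aldoa and Aldoc, splits the 6-carbon sugar, and triose phosphate isomerase, encoded by Tpi1, interconverts the products. Their log2 differences were -0.027 for Aldoa, 0.058 for Aldoc and -0.14 for Tpi1. The second Aldoa row (ENSMUSG00000114515) was at 10.3 to 11.2 TPM in knockouts and 9.52 to 14.8 TPM in controls, and reads could be split between the 2 rows. Gapdh, which makes the first energy-rich intermediate of the pathway and is often used as a reference gene, was at 1408, 1425 and 1170.4 TPM in the knockouts and at 1009.6, 1179.7 and 1160.0 TPM in the controls. It was the enzyme row with the largest positive difference among abundant enzymes, knockouts 1 and 2 lay above all controls, and knockout 3 lay between controls 2 and 3 (log2 difference 0.25, SE 0.098; limma adjusted p = 0.376; authors' deposited table, adjusted p = 0.0688). Without knockout 3 its log2 difference was 0.35 (limma adjusted p = 0.0975).

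The later steps form ATP and pyruvate. Phosphoglycerate kinase (Pgk1) and phosphoglycerate mutase (Pgam1) had log2 differences of -0.090 and -0.070. Enolase is encoded by Eno1 in most tissues, by Eno2 in neurons and by Eno3 in muscle. Eno1 averaged 617 ± 45.4 TPM in knockouts and 624 ± 48.3 TPM in controls. Its near copy Eno1b was at 11.0, 88.6 and 21.5 TPM in the knockouts and at 11.0, 107.0 and 15.1 TPM in the controls, highest in library 2 of both groups, and reads could be split between the 2 rows. Eno2 was at 12.3, 13.3 and 15.7 TPM in the knockouts and at 13.9, 10.8 and 7.05 TPM in the controls, with overlap through control 1 (log2 difference 0.39, SE 0.22; limma adjusted p = 0.575; 0.15 without control 3). Eno3 had a log2 difference of 0.049. Pkm, the pyruvate kinase gene, averaged 642 ± 49.3 TPM in knockouts and 635 ± 12.1 TPM in controls, the second highest level of the list.

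Lactate dehydrogenase is a tetramer of A subunits, which favour lactate formation, and B subunits, which favour pyruvate formation. Ldha (ENSMUSG00000063229) was at 490.2, 476 and 509 TPM in the knockouts and at 592, 606 and 556 TPM in the controls, without overlap (log2 difference -0.25, SE 0.060; limma adjusted p = 0.158; authors' deposited table, adjusted p = 0.0235). Ldhb was at 519, 559 and 547 TPM in the knockouts and at 533, 502 and 477 TPM in the controls, with overlap, and its log2 difference of 0.11 had the other sign (SE 0.064; limma adjusted p = 0.607). The ratio of Ldha to Ldhb was 0.945, 0.852 and 0.931 in the knockouts and 1.11, 1.21 and 1.17 in the controls, so Ldhb was the more abundant transcript in every knockout and Ldha in every control. Reads of near copies could affect Ldhb, since the pseudogene row Ldhb-ps held 67.2 to 100.4 TPM in knockouts and 35.7 to 77.1 TPM in controls. In control 1 Ldhb-ps was at 77.1 TPM, more than the gap between Ldha at 592 and Ldhb at 533 TPM. Counted with Ldhb, it would reverse the order in that library. Ldha-ps2 did not exceed 4.58 TPM in any library.

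**Figure D3:**
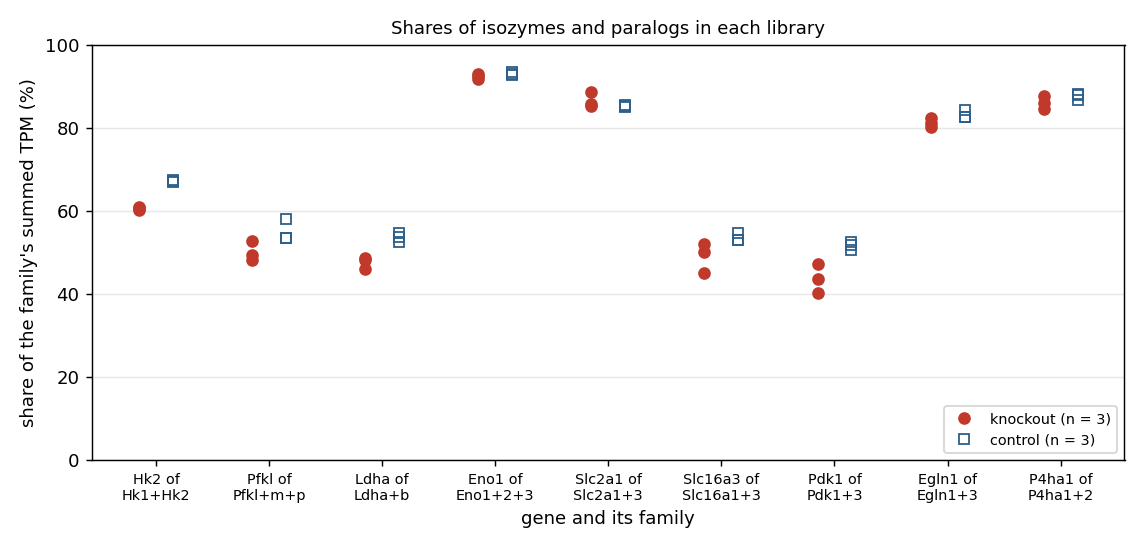
Share of each gene in the summed TPM of its family (y axis, percent) in the 3 knockout libraries (filled circles) and 3 control libraries (open squares). Hk2, Pfkl, Ldha, Slc16a3, Pdk1 and Egln1 held a smaller share of their family in every knockout than in any control, and the shares of Eno1, Slc2a1 and P4ha1 overlapped.

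All 4 transporter genes had negative log2 differences, with a median of -0.27. None of the 4 passed limma's test (3 at an unadjusted p under 0.05, all lower), and the authors' deposited table calls 2 lower. Slc2a3 (ENSMUSG00000003153), the high-affinity glucose transporter GLUT3, was at 16.9, 13.4 and 15.2 TPM in the knockouts and at 17.7, 21.4 and 20.8 TPM in the controls, without overlap but with control 1 close to knockout 1 (log2 difference -0.38, SE 0.12; limma adjusted p = 0.286; authors' deposited table, adjusted p = 0.0300). Slc2a1, the widely expressed glucose transporter GLUT1, was at 100.1, 105 and 88.3 TPM in the knockouts and at 105, 124 and 118 TPM in the controls. Knockout 2 lay just above control 1, so the groups overlapped (log2 difference -0.24, SE 0.091; limma adjusted p = 0.373).

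Slc16a3 (ENSMUSG00000025161), the lactate exporter MCT4 of highly glycolytic cells, was at 44.7, 46.9 and 45.0 TPM in the knockouts and at 53.0, 57.8 and 57.8 TPM in the controls. The knockout values varied little, with an SD of 1.16 TPM, and lay below every control (log2 difference -0.30, SE 0.071; limma adjusted p = 0.151; authors' deposited table, adjusted p = 0.0160). Slc16a1, the more general monocarboxylate transporter MCT1, averaged 47.5 ± 6.90 TPM in knockouts and 48.9 ± 4.14 TPM in controls, with overlap. Summed over the 4 genes, transporter transcripts came to 203, 212 and 203 TPM in the knockouts and 219, 255 and 248 TPM in the controls.

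Of the 13 other hypoxia-induced genes, 8 had negative and 5 positive log2 differences, with a median of -0.15 that was -0.084 without knockout 1 and -0.075 without knockout 3. None passed limma's test (4 at an unadjusted p under 0.05, 3 lower and 1 higher), and the authors' deposited table calls 0 higher and 2 lower. Pdk1 (ENSMUSG00000006494), whose product blocks the entry of pyruvate into the citric acid cycle, was at 35.8, 38.6 and 37.6 TPM in the knockouts and at 45.5, 52.8 and 50.4 TPM in the controls. The groups were well apart (log2 difference -0.40, SE 0.082; limma adjusted p = 0.109; authors' deposited table, adjusted p = 0.000225). Its paralog Pdk3 averaged 48.5 ± 6.56 TPM in knockouts and 46.4 ± 1.75 TPM in controls, and Pdk1 made up 43.6%, 47.2% and 40.3% of the TPM of both kinases in the knockouts and 50.6%, 52.5% and 51.7% in the controls.

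P4ha1 (ENSMUSG00000019916) encodes the catalytic subunit of the enzyme that hydroxylates proline in collagen. It was at 116, 122 and 127 TPM in the knockouts and at 154, 162 and 154 TPM in the controls, the smallest p of the 36 rows (log2 difference -0.36, SE 0.060; limma adjusted p = 0.0569; authors' deposited table, adjusted p = 0.000169). Its limma adjusted p was 0.0325 without knockout 3 and between 0.142 and 0.297 without any one of the other libraries. P4ha2, the second such subunit, averaged 19.7 ± 2.30 TPM in knockouts and 22.1 ± 1.44 TPM in controls, with overlap. Ero1a, an oxidase of the endoplasmic reticulum that HIF induces, was at 26.2, 23.8 and 31.3 TPM in the knockouts and at 30.0, 33.1 and 34.6 TPM in the controls, with overlap through knockout 3 (log2 difference -0.27, SE 0.11; limma adjusted p = 0.439).

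**Figure D4:**
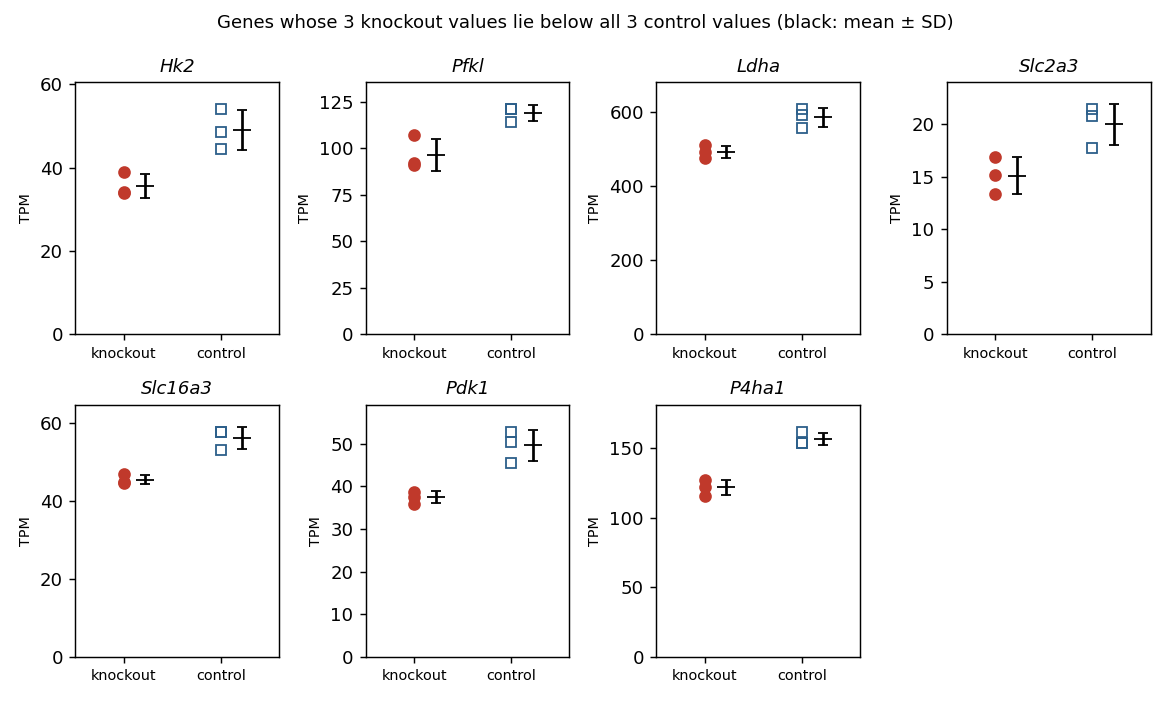
TPM in each of the 3 knockout libraries (filled circles) and 3 control libraries (open squares) for the 7 genes whose groups do not overlap with the knockouts lower, on axes that start at 0, with the mean ± SD in black. The knockout means are lower than the control means by 15.9% (Ldha) to 27.1% (Hk2).

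The groups overlapped for Vegfa, Egln1, Egln3, Bnip3, Ankrd37, Ndrg1 and Kdm3a. Vegfa, the main growth factor of blood vessels, was at 182, 183 and 175 TPM in the knockouts and at 172, 189 and 175 TPM in the controls. Its log2 difference was 0.015, with an unadjusted 95% interval from -0.12 to 0.15. Egln1 and Egln3 encode prolyl hydroxylases of HIF that HIF itself induces, and their log2 differences were -0.15 and 0.031. Bnip3, which promotes removal of mitochondria, Ankrd37, and the histone demethylase gene Kdm3a had log2 differences of -0.15, -0.13 and -0.15, and the stress-responsive gene Ndrg1 one of 0.059. With 1 library left out, the difference of Bnip3 ran from -0.27 to -0.040 and that of Ankrd37 from -0.23 to -0.036. Adm, which encodes the vessel-active peptide adrenomedullin, was at 3.22, 3.53 and 3.83 TPM in the knockouts and at 2.54, 1.65 and 0.847 TPM in the controls. It was the 1 row wholly higher in the knockouts, at a low level with as few as 11 recovered reads in a library (log2 difference 0.81, SE 0.26; limma adjusted p = 0.273; authors' deposited table, adjusted p = 0.317).

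The genes of oxygen sensing showed no call in either test. None of 13 tested passed limma, 3 had an unadjusted p under 0.05, and the authors' deposited table calls 0. Hif1a, the main HIF alpha subunit, averaged 106 ± 4.84 TPM in knockouts and 107 ± 6.77 TPM in controls. Epas1, the alpha subunit of HIF2, was at 17.9, 16.3 and 15.5 TPM in the knockouts and at 24.2, 22.1 and 18.5 TPM in the controls, lower without overlap (log2 difference -0.36; limma adjusted p = 0.311). Elob, a member of the complex that marks HIF for breakdown, lay above the controls without overlap (log2 difference 0.21; limma adjusted p = 0.343). Egln2, a further HIF prolyl hydroxylase, had a log2 difference of -0.0032.

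Of 27 further hypoxia targets outside the 35, 0 were higher and 1 was lower by limma, and the authors' deposited table calls 3 lower, beside 0.313% of all genes lower by limma and 2.17% in the authors' deposited table. Vldlr, a lipoprotein receptor gene, fell to 23.1, 26.3 and 25.8 TPM in the knockouts, against 36.7, 40.0 and 40.5 TPM in the controls (log2 difference -0.62, SE 0.088; limma adjusted p = 0.0305). The other calls of the authors' deposited table were Plod1, a collagen lysyl hydroxylase gene, and Ak4, a mitochondrial adenylate kinase gene. Plod1 averaged 51.4 ± 6.56 TPM in knockouts and 79.6 ± 5.12 TPM in controls (limma adjusted p = 0.0544), and Ak4 16.7 ± 2.14 TPM in knockouts and 24.5 ± 2.43 TPM in controls (limma adjusted p = 0.146). The median log2 difference of the 27 was -0.11, and 6 of them (22.2%) lay below the controls without overlap, against 8.49% of all genes tested. This list too was chosen with earlier results known, so the share is only a description.

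Neighbouring routes of glucose use gave no call by limma or in the authors' deposited table. In the pentose phosphate pathway, which branches off after hexokinase, none of 7 genes passed limma (1 at an unadjusted p under 0.05). The summed level of these genes was 530.4, 527 and 538 TPM in the knockouts and 499, 491 and 482 TPM in the controls, above in every knockout. Taldo1 and Tkt, which recycle its sugars, had log2 differences of 0.23 and 0.067. None of 11 genes for the entry of pyruvate into mitochondria passed limma (0 at an unadjusted p under 0.05), and Dld and Pdha1 differed by -0.039 and -0.11. None of 11 tested genes listed as other glycolytic enzymes and regulators passed limma (1 at an unadjusted p under 0.05, higher). Of their log2 differences, 9 were positive and 2 negative. Pck2 and G6pc3 of that list, which encode enzymes of reverse steps and not of glycolysis, differed by -0.074 and 0.10.

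Markers of other cells also differed between the groups, and their part in the results above was not tested. Endothelial cells use glycolysis heavily. The 9 endothelial markers summed to 419.6 to 461 TPM in knockouts and 493 to 533 TPM in controls, and their log2 differences were all negative with a median of -0.25. None passed limma, and 2 were lower in the authors' deposited table, where 2.17% of all genes with an adjusted p are lower. Cdh5 and Emcn differed by -0.28 and -0.047. The 9 gonadal somatic markers summed to 131 to 232 TPM in knockouts and 92.3 to 109 TPM in controls, and Nr5a1 and Gata4 were higher by limma (adjusted p = 0.0281 and 0.0354). The 17 erythroid markers summed to 16610.0 to 18538 TPM in knockouts and 13316 to 17647 TPM in controls, with overlap, and Hbb-y and Hba-a1 differed by 0.061 and 0.36. With the erythroid genes left out and TPM rescaled, the log2 differences of Hk2, Pdk1, P4ha1 and Ldha were -0.44, -0.39, -0.36 and -0.25. The erythroid genes averaged 17292 TPM in knockouts and 15506 TPM in controls, of 1000000 TPM per library. Their removal could therefore hardly move a difference, and it does not test the effect of blood content.

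The 7 skeletal muscle markers summed to 14.1, 26.4 and 50.1 TPM in knockouts 1 to 3 and to 11.5 to 12.4 TPM in controls. Mylpf and Tnnt3 differed by 0.96 and 0.36. The 10 neural markers summed to 128, 79.1 and 62.8 TPM in knockouts 1 to 3 and to 54.5 to 67.1 TPM in controls, and Stmn2 and Tubb3 differed by 0.062 and 0.94. The 7 macrophage markers summed to 114 to 143 TPM in knockouts and 113 to 162 TPM in controls, and C1qb and C1qa differed by -0.26 and -0.18. None of the tested muscle, neural, macrophage or erythroid markers passed limma (2, 2, 0 and 4 at an unadjusted p under 0.05). The test covered 3 of the 7 muscle markers and 9 of the 10 neural markers. Over all genes tested, 0.444% passed limma and 11.3% had an unadjusted p under 0.05. Of all listed markers, the authors' deposited table calls 3 muscle, 2 neural, 0 macrophage and 1 erythroid higher. Of its 18858 genes with an adjusted p, it calls 670 in either direction (3.55%), of which 410 are lower (2.17%). Its muscle calls include genes too low for the limma test, Myog among them. Myog was at 0 in control 1 and Hsd3b1 at 0 in control 3.

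**Figure D5:**
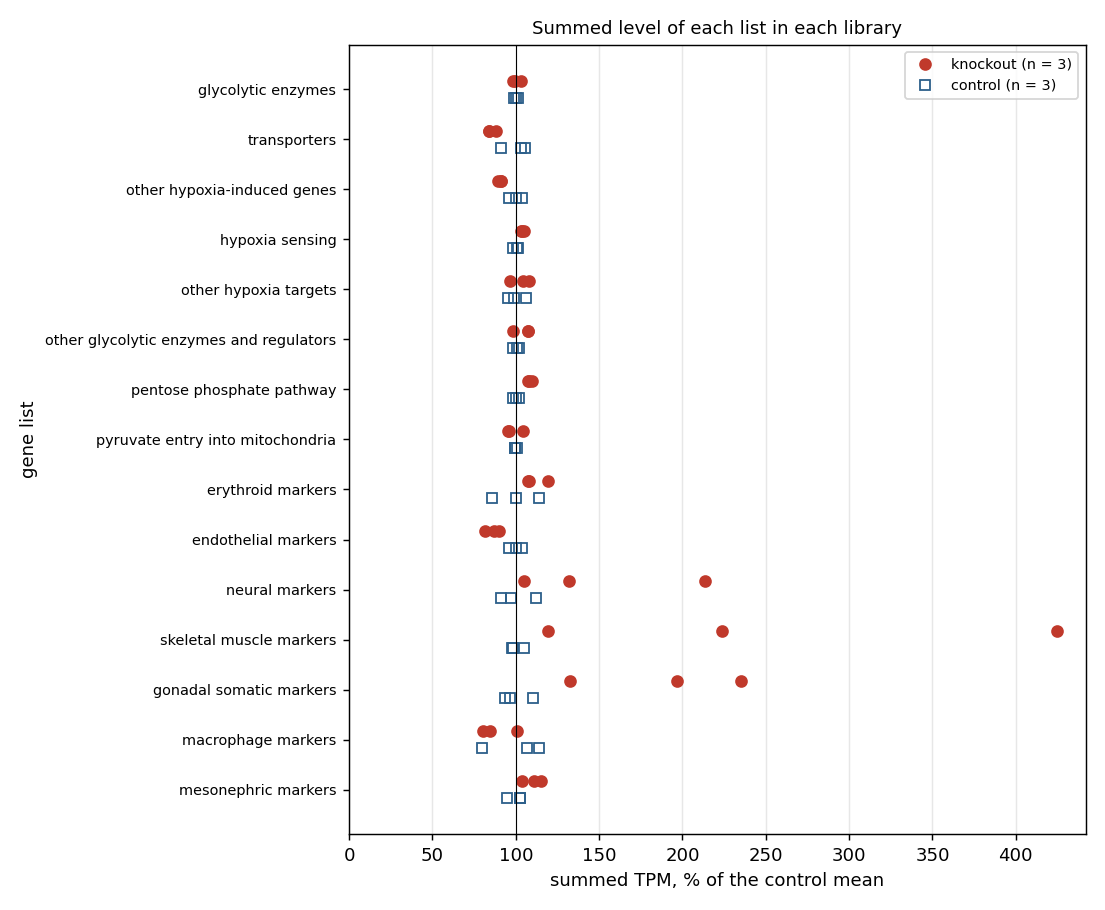
Summed TPM of each gene list (y axis) in every library as a percent of the mean of the 3 controls (x axis), for knockouts (filled circles) and controls (open squares). The sums of transporters, other hypoxia-induced genes and endothelial markers are lower in every knockout than in any control. Those of the hypoxia sensing genes, pentose phosphate pathway and skeletal muscle, gonadal somatic and mesonephric markers are higher in every knockout. The other sums overlap. Abundant genes weigh most in a sum, such as Elob (mean 368 TPM in knockouts, 319 TPM in controls) and Tcf21 (295 and 191 TPM). The median log2 difference was -0.0089 for the hypoxia sensing genes and 0.027 for the mesonephric markers.

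The 36 rows varied less between embryos of a group than genes in general. Their median coefficient of variation was 8.55% in knockouts and 6.70% in controls, against 11.9% and 9.64% over all genes tested, and their median level of 49.5 TPM was also above the 16.4 TPM of all genes. Summed over families, the hexokinases came to 64.3, 56.4 and 56.0 TPM in the knockouts and 66.0, 72.5 and 80.7 TPM in the controls. The collagen prolyl hydroxylases P4ha1 and P4ha2 came to 135, 144 and 145 TPM in the knockouts and 178, 184 and 175 TPM in the controls. Both sums were lower in every knockout. The sums of the aldolases, the enolases and the lactate dehydrogenases overlapped, with means that changed by -2.02%, -0.236% and -5.04%.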

How the data were processed

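Poly(A)-selected RNA of 6 male mesonephroi (E12.5) was sequenced as paired reads, as the labels' protocols state. The submitters' processing notes name build GRCm39 and DESeq2; aligner, counter, strand setting and annotation: not given in the sources used here. Per the file headers, the authors deposited 1 TPM column per embryo. Per the file headers the table also holds the authors' log2 fold change, p-value and adjusted p-value, quoted only as theirs; 1175 genes have no such adjusted p.

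Groups follow the titles. The main test was limma (version 3.58.1, R 4.3.3) with its trend option on log2(TPM + 1), fitted to genotype alone. It covered 17577 genes with 1 TPM or more in 3 or more libraries, all 36 rows among them, with Benjamini-Hochberg adjustment over them and a threshold of 0.05. Differences on this scale understate changes of low genes. Litters and batches are not given. Whole reads were recovered from the TPM steps for 20033 genes within 0.02 reads; a factor common to all 6 values of a gene is lost. Alternatives were a pseudocount of 0.1 TPM, no filter, median-ratio scaling, TPM without erythroid genes, a replicate block, each library left out, and limma-voom on recovered reads, added after the table was seen.

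The members and all lists were chosen with earlier results of these data known. Every member is named; those whose groups do not overlap get their value in each library. From each other list, up to 4 members past limma are named, or the 2 of highest level. Hif1a, Epas1, Plod1, Ak4, Wt1, Myog and Hsd3b1 were chosen after their values were seen. No set test was run on a list, and shares, ratios and sums are described without a test. Fbp1 and Ckm were not analysed here, and 1 further gene is not reported here. Promoter windows were matched by symbol for 33 of the 35 members, and both strands were searched.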

Additional observations from a re-analysis of the deposited data

How the results depend on the processing

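The 78 genes called by limma over all genes became 17 with a replicate block, between 13 and 242 when 1 library was left out (30 for knockout 1, 22 for knockout 2, 242 for knockout 3, 28 for control 1, 13 for control 2 and 14 for control 3), and 296 by limma-voom on recovered reads. The same replicate numbers did not mark samples that deviate together (r = -0.064, 0.050 and -0.051 for numbers 1 to 3), and the block called 0 of the 36 rows. Among the glycolytic enzymes the count of 0 became 1 by limma-voom (Hk2, adjusted p = 0.0266), and among the other hypoxia-induced genes 2 (P4ha1 and Pdk1, adjusted p = 0.0196 and 0.0207); it ranged from 0 to 1 when 1 library was left out, with P4ha1 called without knockout 3. The transporters stayed at 0 under every alternative run. No row of the 36 changed sign under another pseudocount, no filter, either rescaling, the block or limma-voom. When 1 library was left out, 23 rows kept their sign, Hk2, Pfkl, Ldha, Slc2a3, Slc16a3, Pdk1 and P4ha1 among them, and 13 near 0 did not. Their log2 differences then ran from -0.12 to 0.03 for Hk1, -0.08 to 0.05 for Pfkm, -0.10 to 0.015 for Aldoa, -0.29 to 0.0035 for Aldoa on its second row, -0.014 to 0.16 for Aldoc, -0.071 to 0.044 for Eno1, -0.0041 to 0.11 for Eno3, -0.049 to 0.052 for Pkm, -0.15 to 0.048 for Slc16a1, -0.05 to 0.13 for Pdk3, -0.012 to 0.055 for Vegfa, -0.045 to 0.10 for Egln3, -0.037 to 0.12 for Ndrg1. Among rows that kept their sign, beside Bnip3 and Ankrd37, single libraries moved the rounded difference by 1.5 times or more for the following, with ranges of -0.078 to -0.02 for Gpi1, -0.13 to -0.025 for Pfkp, -0.21 to -0.085 for Tpi1, -0.15 to -0.034 for Pgk1, -0.10 to -0.038 for Pgam1, 0.15 to 0.59 for Eno2, 0.066 to 0.15 for Ldhb, -0.19 to -0.072 for Egln1, -0.37 to -0.18 for Ero1a, -0.25 to -0.10 for P4ha2. Median-ratio scaling moved the median of all genes from -0.0075 to 0.00073. At a low level, as for Adm, few reads limit the precision.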
